A study of Mus musculus with 12 samples.

Results

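The 10 genes followed here are canonical endothelial genes measured in the mouse heart, chosen by name because they define the cells that line blood vessels. They are Pecam1, Cdh5, Kdr, Flt1, Tek, Tie1, Vwf, Ptprb, Eng and Nos3, which makes 10 of the 27179 genes listed for each diet, and all 10 had a row for both diets. Hearts came from C57Bl/6J mice 12 weeks old, which ate a diet with 0 or 60 kcal% fat for 4 days before sham surgery or transverse aortic constriction (TAC, a band on the aorta that loads the left ventricle with pressure) and for 1 week after it. Polyadenylated RNA was sequenced with a stranded kit. The groups were fat-free sham, fat-free TAC, high-fat sham and high-fat TAC, each with 3 labelled libraries. The analysis covers 11 of these, because replicate 1 of the high-fat sham group was not used here and that group had n = 2. Nothing in the labels says that libraries of a group came from separate animals, so p-values measure the spread between these libraries. No transgene or deletion is given for any group.

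Endothelial cells form the inner lining of vessels and are joined by VE-cadherin, the product of Cdh5, and by PECAM-1, the product of Pecam1. They read vascular endothelial growth factors (VEGF) through the receptors VEGFR2 and VEGFR1, encoded by Kdr and Flt1, and angiopoietins through TIE2, encoded by Tek, with TIE1 as its partner and VE-PTP, encoded by Ptprb, as a phosphatase that restrains TIE2. In the heart most of these cells are capillary cells between the muscle fibres, while von Willebrand factor (Vwf) is richest in veins, larger vessels and the endocardium, the lining of the chambers.

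In brief, most of the members did not pass the test after TAC, and those that did went both ways. On the fat-free diet Cdh5 was higher after TAC, a call lost in 4 alternative fits and kept in 13. On the high-fat diet Flt1 and Ptprb were lower. Both of these calls were lost without TAC replicate 3 and when scaled to the library total. Over both diets Pecam1 and Cdh5 were higher, and Cdh5 lost that call in 9 alternative fits and kept it in 11. Of all genes tested, 24.2%, 31.7% and 51.2% passed in these comparisons. Eng itself was flat over both diets and fell relative to Pecam1 within the libraries, a call lost in 10 alternative runs and kept in 5. Vwf had the widest range over libraries of any member and in each group was lowest in the same library as 5 of 8 endocardial genes. This also held for 2.32% of all genes with a mean of at least 100, and was counted after the values of Vwf were seen. The fibroblast markers Dcn, Gsn and Fbln1 and the atrial markers Myl7, Sbk2 and Stard10 were also lowest in the libraries lowest in Vwf. For no member did the TAC effect differ between the diets past the threshold.

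All values below are the authors' normalized read counts, which were scaled within each diet, so the diets were not tested against each other for level. In whole-heart RNA, fewer cells of a type and less RNA per cell cannot be told apart. The 11 libraries held 25906622 to 39699027 normalized counts and 16541 to 18348 genes with a count. Transcripts of the mitochondrial genome took 26.2% to 32.7% of the counts in the sham libraries and 18.1% to 25.3% in the TAC libraries. Myl7, an atrial myosin light chain, was above 1000 in 4 libraries. It was at 9915, 274 and 8426 in fat-free sham replicates 1, 2 and 3 and at 1758, 23 and 75 in fat-free TAC. High-fat sham replicates 2 and 3 had 4 and 6, against 14839, 10 and 6 in high-fat TAC replicates 1, 2 and 3. High-fat TAC replicate 1 also stood apart in the summed smooth muscle markers, with 33641 against 7662 to 14494 in the other libraries, and in the summed cardiomyocyte markers, with 1209021 against 1850099 to 2609695. Macrophage markers summed to 8067 to 12169 in the sham libraries and to 14077 to 28102 in the TAC libraries. Pericyte markers summed to 16151 to 23832 in the sham libraries and to 11977 to 18445 in the TAC libraries. Fibroblast markers summed to 64577 to 126478 in the sham libraries and to 92653 to 394749 in the TAC libraries, with the highest sum in high-fat TAC replicate 1. No marker of these lists was at 0 in every library. Their part in the results below was not tested, apart from the fits that leave libraries out or carry Myl7 as a covariate.

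The upstream sequences of the VEGF receptors are shown because Flt1 passed the test on the high-fat diet and Kdr did not. Their log2 fold changes there were both negative, -0.59 ± 0.13 (SE) for Flt1 and -0.43 ± 0.26 (SE) for Kdr. The ratio Flt1 over Kdr did not pass (exact permutation p 0.3 over both diets), so no difference between the 2 genes was shown. Each line gives the 250 bases before the start of the gene as RefSeq places it on build GRCm38.p6, read on the gene's own strand, which is the minus strand for both. Flt1 lies at chr5:147726012-147726261 and Kdr at chr5:75978456-75978705. Capitals mark the ETS motif AGGAAG, which reads CTTCCT on the other strand, and the ETS motif CCGGAA, which reads TTCCGG there. ETS factors such as ERG are known regulators of endothelial genes.
Flt1: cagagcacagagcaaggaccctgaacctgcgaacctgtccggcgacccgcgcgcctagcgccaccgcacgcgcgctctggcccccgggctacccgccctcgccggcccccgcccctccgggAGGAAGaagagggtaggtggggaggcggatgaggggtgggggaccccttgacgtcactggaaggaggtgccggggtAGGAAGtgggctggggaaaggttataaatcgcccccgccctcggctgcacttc
Kdr: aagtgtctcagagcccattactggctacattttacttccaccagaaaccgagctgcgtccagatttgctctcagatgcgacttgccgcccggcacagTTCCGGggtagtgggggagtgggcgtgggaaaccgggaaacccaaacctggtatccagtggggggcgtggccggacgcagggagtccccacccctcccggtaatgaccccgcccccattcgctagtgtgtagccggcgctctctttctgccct
Motifs were searched on both strands over the 300 bases from 250 before to 50 after the start, the same window as for all 32851 promoters in the RefSeq table. Flt1 held AGGAAG at positions -129 and -53 from the start and no CCGGAA. Kdr held CCGGAA at position -153, read on the other strand, and no AGGAAG. Over all promoters, AGGAAG occurred in 35.4% and CCGGAA in 14.9%. Flt1 also held 3 GC boxes (GGGCGG, in 35.7% of promoters) and 1 TATA box (TATAAA, in 13.6%), and Kdr held 2 GC boxes and no TATA box. AGGAAG occurred 2 times in Tie1 and 2 times in Eng, and Tek held neither ETS motif but 1 GATA motif (AGATAA, in 11.2%). An entry was present for these 5 of the 10 genes. The others are Pecam1, Cdh5, Vwf, Ptprb and Nos3. A match of letters describes the window and is not a site of binding.

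Levels were compared between genes only as normalized counts per kilobase of exon. Pecam1 had the highest level in 10 of the 11 libraries, between 1281 and 2474 per kilobase. Cdh5 was first in high-fat sham replicate 2. Cdh5 ranged from 870.3 to 2270 per kilobase and Eng from 1089 to 1387, and these genes took ranks 1 to 3 with Pecam1 in all 11 libraries. Kdr (513 to 1147 per kilobase) and Tie1 (504 to 869) shared ranks 4 and 5 in all 11. Below them came Flt1 (276 to 480), Tek (270 to 521), Ptprb (256 to 460), Vwf (109.6 to 447) and Nos3 (171 to 307). These 5 ranges overlapped, so the order among them changed between libraries. Vwf took ranks from 6 to 10, and Nos3 was at rank 9 or 10 throughout.

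**Figure D1:**
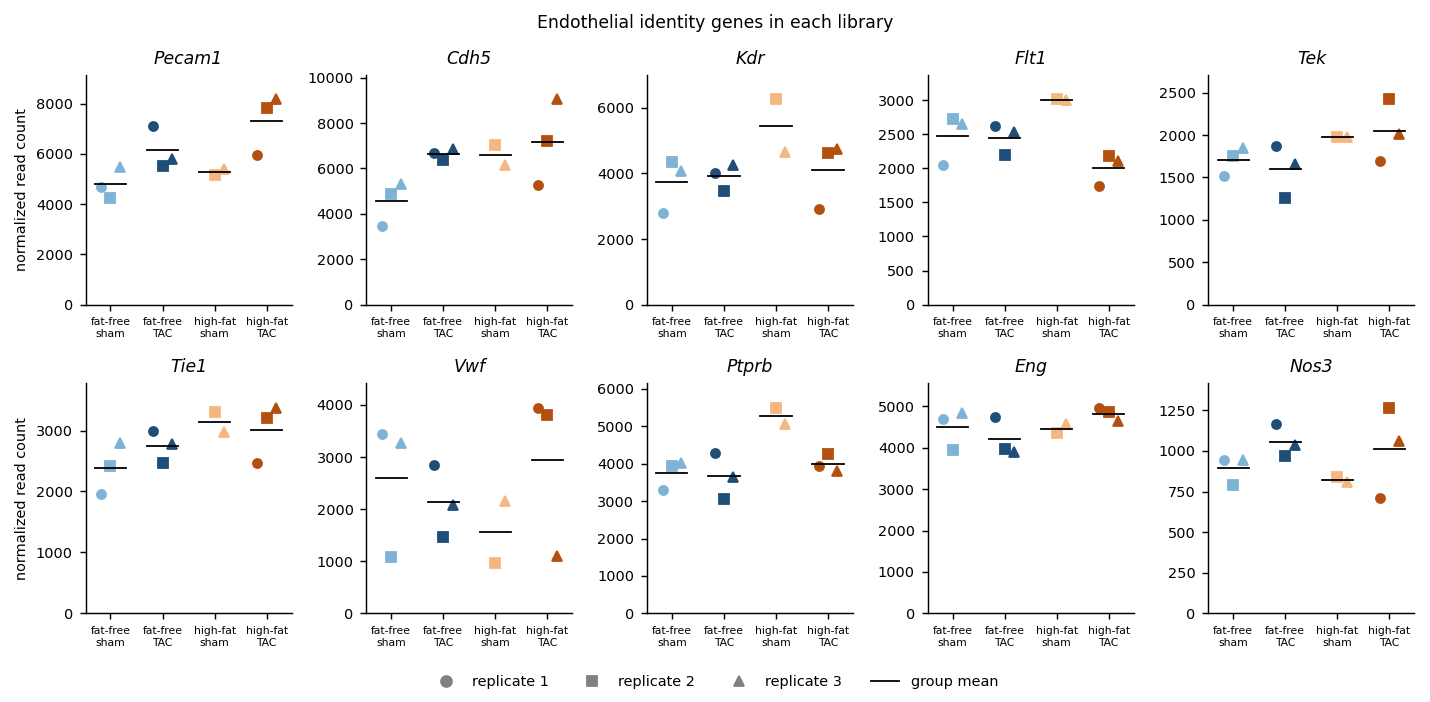
Normalized read count (y axis, from 0) of each of the 10 genes in the 4 groups (x axis). Each point is a library with its shape giving the replicate number, and lines are group means. Cdh5 lies higher in all fat-free TAC libraries than in fat-free sham, Flt1 and Ptprb lie lower in all high-fat TAC libraries than in high-fat sham, and Vwf is spread within every group.

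The members that rose were the junction genes Cdh5 and Pecam1, the first on the fat-free diet and over both diets and the second over both diets. Cdh5 (chr8:104101625-104144502, plus strand, mm10, 12 exons) was at 3469, 4869 and 5337 normalized counts in fat-free sham replicates 1, 2 and 3 and at 6699, 6357 and 6853 in fat-free TAC. Every fat-free TAC library was above every fat-free sham library. The means were 4558 ± 972 (SD, n = 3) and 6636 ± 254 (SD, n = 3), a log2 fold change of 0.56 ± 0.15 (SE) that passed limma's test with a Benjamini-Hochberg adjusted p of 0.0458. This was the only member past the threshold of 0.1 on the fat-free diet, 1 of 10 and higher, where 24.2% of the 13995 genes tested passed and 14.2% were higher. The call was lost without fat-free TAC replicate 1 (adjusted p 0.111) or replicate 2 (0.119), with Myl7 as a covariate (0.138) and without the libraries above 1000 Myl7 counts (0.328, where 1 sham and 2 TAC libraries were left and 0 genes of all passed). Its log2 fold change lay between 0.44 and 0.60 in these fits.

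With high fat, Cdh5 was at 7052 and 6158 in sham replicates 2 and 3 and at 5284, 7224 and 9050 in TAC replicates 1, 2 and 3. The sham libraries lay inside the range of the TAC libraries. The log2 fold change was 0.09 ± 0.24 (SE), with a limma adjusted p of 0.792. An unnamed gene on the other strand (gene ID 100861701) shares 847 exon bases with Cdh5, and its row held 0 to 4 normalized counts in any library.

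Pecam1 (chr11:106654218-106715281, minus strand, 15 exons) was at 4687, 4235 and 5466 in fat-free sham and at 7098, 5523 and 5786 in fat-free TAC, in replicate order. It was at 5142 and 5386 in the high-fat sham libraries 2 and 3 and at 5940, 7819 and 8175 in TAC. In neither diet did the groups overlap, with every TAC library the higher. The log2 fold change was 0.35 ± 0.13 (SE) on the fat-free diet and 0.46 ± 0.16 (SE) on the high-fat diet, and neither passed, with limma adjusted p of 0.107 and 0.101. In the authors' deposited table Pecam1 had an adjusted p of 0.0756 on the fat-free diet, where it and Cdh5 were the 2 members past the threshold, both higher, of 24.2% of genes past it with 14.3% higher, and 0.105 on the high-fat diet. The fat-free value also passed without fat-free sham replicate 3 (0.45, adjusted p 0.0881). Without high-fat TAC replicate 1, the lowest of its group, the high-fat value was 0.60 with an adjusted p of 0.00824.

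With both diets in one fit and diet as a term, Pecam1 was higher after TAC by 0.40 ± 0.11 (SE) on the log2 scale, with a limma adjusted p of 0.0122. Cdh5 was higher by 0.35 ± 0.16 (SE) with an adjusted p of 0.0916. These were 2 of the 10 members, both higher, where 51.2% of the 14729 genes tested passed and 25.8% were higher. The fit uses the same libraries as the comparisons within each diet and is not independent of them. Pecam1 passed in every one of the alternative fits over both diets, and Cdh5 lost its call in 9 of 20 of them, among them those without fat-free sham replicate 1 (adjusted p 0.188), without fat-free TAC replicate 1 (0.169) and without high-fat TAC replicate 3 (0.166).

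Other junction genes were counted in a list of 13 partners of VE-cadherin. Of the 13, 3 passed on the fat-free diet, all higher, and on the high-fat diet 3 were higher and 1 was lower. That is 23.1% and 30.8% of the list, near the 24.2% and 31.7% of all genes tested. Ctnnd1, which encodes p120-catenin, a protein that holds VE-cadherin at the membrane, was higher on both diets, by 0.33 ± 0.08 (SE, adjusted p 0.0388) and 0.26 ± 0.09 (SE, adjusted p 0.0984, limma). Esam, an endothelial adhesion molecule, was higher on the fat-free diet by 0.46 ± 0.14 (adjusted p 0.0577) and had a log2 fold change of 0.14 ± 0.20 on the high-fat diet (limma adjusted p 0.635). Both fat-free calls were lost without fat-free sham replicate 1 (adjusted p 0.102 for Ctnnd1, and 0.121 with a value of 0.31 for Esam), TAC replicate 1 (0.123 and 0.120) or TAC replicate 2 (0.108 and 0.168). The list's median log2 fold change was 0.07 (fat-free) and -0.03 (high-fat), against -0.02 and -0.01 over all genes tested.

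Of the VEGF receptors, Flt1 was lower after TAC on the high-fat diet. Flt1 (chr5:147562196-147725988, minus strand, 30 exons), whose product binds VEGF with high affinity and also exists as a secreted form that traps it, was at 3013 and 2997 in high-fat sham replicates 2 and 3. It was at 1733, 2178 and 2103 in high-fat TAC replicates 1, 2 and 3. All 3 TAC libraries lay below both sham libraries. The means were 3005 ± 11.3 (SD, n = 2) and 2005 ± 238 (SD, n = 3), a log2 fold change of -0.59 ± 0.13 (SE) with a limma adjusted p of 0.0475. Without fat in the diet, Flt1 was at 2054, 2719 and 2642 in sham and at 2614, 2192 and 2526 in TAC. These groups overlapped, with a log2 fold change of -0.01 ± 0.13 (SE) and an adjusted p of 0.970.

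Kdr (chr5:75933265-75978428, minus strand, 30 exons), the main signalling receptor for VEGF-A, was at 2799, 4336 and 4083 in fat-free sham and at 4021, 3452 and 4242 in fat-free TAC. Among the high-fat libraries, sham replicates 2 and 3 were at 6258 and 4645 and TAC at 2919, 4621 and 4735. The groups overlapped on both diets, since high-fat TAC replicate 3 lay above high-fat sham replicate 3. The log2 fold changes were 0.08 ± 0.17 (SE, adjusted p 0.768) and -0.43 ± 0.26 (SE, adjusted p 0.251, limma). High-fat TAC replicate 1, the library rich in Myl7, was the lowest of all high-fat libraries for both receptors.

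Ptprb (chr10:116301374-116389538, plus strand, 32 exons) was the other member to fall on the high-fat diet. It was at 5485 and 5064 in sham replicates 2 and 3 and at 3924, 4255 and 3789 in TAC replicates 1, 2 and 3. All TAC libraries lay below both sham libraries, with means of 5275 ± 298 (SD, n = 2) and 3989 ± 240 (SD, n = 3). The log2 fold change was -0.40 ± 0.10 (SE) with a limma adjusted p of 0.0599. Its fat-free values were 3301, 3927 and 4020 in sham and 4281, 3046 and 3642 in TAC. The groups overlapped there, with a log2 fold change of -0.04 ± 0.14 (SE) and an adjusted p of 0.852.

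Flt1 and Ptprb were thus 2 of 10 members past the threshold on the high-fat diet, both lower, where 31.7% of the 14274 genes tested passed and 14.8% were lower. The authors' deposited table gave the same 2 members as lower, Flt1 with a shrunken log2 fold change of -0.51 (adjusted p 0.00206) and Ptprb with -0.30 (0.0618), where 37.5% of its 15753 genes with an adjusted p passed and 17.7% were lower. Whether the authors' high-fat values rest on the same libraries as used here was not established. Eng and Vwf had -0.05 and -0.09 there, against 0.11 and 0.82 here. With high-fat TAC replicate 1 left out, Flt1 and Ptprb still passed and Pecam1 and Nos3 joined them as higher. Calls over all genes also moved, with up to 5966 genes past the threshold when single high-fat libraries were left out, against 4519 with all of them. No member passed once either sham library or TAC replicate 3 was left out, and 0 (sham 2), 128 (sham 3) and 154 (TAC 3) genes of all passed then. With 1 sham library left, its spread was taken from the TAC libraries.

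The direction of these high-fat results also depended on the scaling. Scaled to the library total, the log2 fold change of the median gene went from -0.01 to 0.40. The calls then went from 2410 higher and 2109 lower to 6291 higher and 558 lower. Flt1 was at -0.17 and Ptprb at 0.02 on that scale, both below the median gene. 6 members then passed as higher, with Pecam1 at 0.88, Cdh5 at 0.51 and Nos3 at 0.67. Scaled to the total without mitochondrial transcripts, the median gene was at 0.21, 3836 genes were higher and 999 lower, and Ptprb was at -0.18 with an adjusted p of 0.217. For the fat-free libraries the total moved the median gene from -0.02 to 0.13 and the calls from 1983 higher and 1400 lower to 2766 and 704. Over both diets it moved them from 3803 higher and 3741 lower to 6791 higher and 1261 lower.

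**Figure D2:**
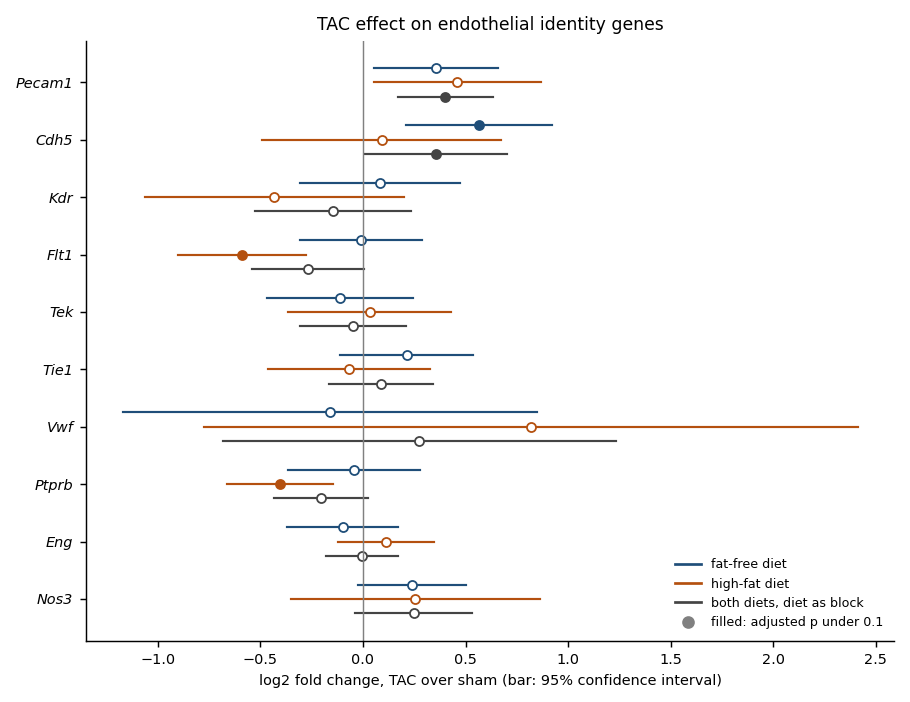
Log2 fold change of TAC over sham (x axis) for each gene (y axis) on the fat-free diet, on the high-fat diet and over both diets with diet as a term. Points are limma estimates, bars are 95% confidence intervals and filled points have an adjusted p under 0.1. The filled points are Cdh5 (fat-free and both diets), Pecam1 (both diets), Flt1 and Ptprb (high-fat), and the intervals of Vwf are the widest.

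Among the angiopoietin receptors, neither passed in any of the comparisons. Tek (chr4:94739300-94874939, plus strand, 23 exons) was at 1512, 1759 and 1851 in fat-free sham and at 1875, 1255 and 1653 in fat-free TAC. It was at 1975 and 1977 in the high-fat sham libraries 2 and 3 and at 1697, 2423 and 2010 in high-fat TAC. The log2 fold changes were -0.11 ± 0.15 (SE) and 0.03 ± 0.16 (SE), and the groups overlapped on both diets.

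Tie1 (chr4:118471191-118489849, minus strand, 23 exons), a receptor with no well-established ligand of its own, was at 1954, 2424 and 2792 in fat-free sham and at 2994, 2470 and 2784 in fat-free TAC. It was at 3306 and 2974 in the high-fat sham libraries 2 and 3 and at 2467, 3207 and 3370 in TAC. Its groups overlapped on both diets. The log2 fold changes were 0.21 ± 0.14 (SE) and -0.07 ± 0.16 (SE).

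Eng (chr2:32646595-32682669, plus strand, 14 exons) encodes endoglin, a co-receptor for the TGF-beta family. It was the flattest member, with a highest value 1.24 times the lowest on the fat-free diet and 1.14 times on the high-fat diet. It was at 4690, 3939 and 4841 in fat-free sham and at 4741, 3957 and 3889 in fat-free TAC. The high-fat values were 4353 and 4561 in sham replicates 2 and 3 and 4956, 4855 and 4641 in TAC. The high-fat TAC libraries were all above the sham libraries, by a log2 fold change of 0.11 ± 0.09 (SE) that did not pass (limma adjusted p 0.409), and the fat-free groups overlapped with a value of -0.10 ± 0.12 (SE).

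Nos3 (chr5:24364819-24384474, plus strand, 26 exons), the endothelial nitric oxide synthase, was at 946, 793 and 946 in fat-free sham and at 1166, 967 and 1037 in fat-free TAC. Every fat-free TAC library was above every sham library, with a log2 fold change of 0.24 ± 0.11 (SE) that did not pass (limma adjusted p 0.190), though it passed with Myl7 as a covariate (0.44, adjusted p 0.0392). With high fat, Nos3 was at 839 and 808 in sham replicates 2 and 3 and at 707, 1264 and 1063 in TAC. High-fat TAC replicate 1 was below both sham libraries, so the groups overlapped, with a log2 fold change of 0.26 ± 0.25 (SE). Without that library it was 0.49 with an adjusted p of 0.0247. Nos3 shares 294 exon bases with Atg9b on the other strand, and Eng shares 61 with Fpgs. Whether the counting used strand is not given in the sources used here.

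Groups that did not overlap were counted beside the same count over all genes. Fat-free groups lay apart for 3 of 10 members (Cdh5, Pecam1 and Nos3, all higher), against 37.3% of all genes tested, with 19.7% of genes higher. High-fat groups lay apart for 4 of 10 (Pecam1 and Eng higher, Flt1 and Ptprb lower), against 63.7% of genes, with 30.6% higher and 33.1% lower, where 2 libraries faced 3. The median log2 fold change of the 10 members was 0.04 on the fat-free diet, 0.06 on the high-fat diet and 0.04 over both, against -0.02, -0.01 and -0.01 over all genes tested. 5 members had a positive and 5 a negative value on the fat-free diet, and 6 and 4 on the high-fat diet.

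The difference of the TAC effect between the diets was tested in a fit over the 11 libraries. It passed for 0 of the 10 members and for 0% of 14729 genes with limma. At an unadjusted p under 0.05 it passed for 679 genes, 1 of them a member. That was Flt1, with a difference of -0.58 ± 0.19 (SE) on the log2 scale, an unadjusted p of 0.0122 and an adjusted p of 0.784. For Cdh5 the difference was -0.47 with a 95% confidence interval from -1.13 to 0.18. For Ptprb it was -0.36 with an interval from -0.78 to 0.06. The fall of Flt1 and Ptprb and the rise of Cdh5 were therefore not shown to belong to one diet.

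Ratios within a library do not depend on its scaling. 5 ratios were compared between TAC and sham with an exact two-sided permutation test over the 200 arrangements within diets, where the smallest p is 0.005, and adjusted over the 5. Eng over Pecam1 fell after TAC. It was 1.00, 0.930 and 0.886 in fat-free sham and 0.668, 0.716 and 0.672 in fat-free TAC, in replicate order. It was 0.847 in both high-fat sham libraries and 0.834, 0.621 and 0.568 in high-fat TAC.

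On both diets all 3 TAC libraries lay below all sham libraries for Eng over Pecam1, though high-fat TAC replicate 1 was below them by little. The mean log2 difference was -0.40, with an exact permutation p of 0.01 and an adjusted p of 0.05. Leaving out single libraries kept it between -0.48 and -0.34, with adjusted p from 0.0833 to 0.15. Within each diet it was -0.45 and -0.35. The call was lost in 10 alternative runs, among them each diet alone, and kept in 5. In the fit over both diets Pecam1 was at 0.40 and Eng at -0.005, so the ratio is not independent of the rise of Pecam1.

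Flt1 over Kdr averaged 0.669 in fat-free sham and 0.627 in fat-free TAC, and 0.563 and 0.503 on the high-fat diet, with groups that overlapped (log2 difference -0.13, exact permutation p 0.3, adjusted 0.558). Tie1 over Tek was 1.29 to 1.51 in fat-free sham and 1.60 to 1.97 in fat-free TAC, with no overlap, but overlapped on the high-fat diet, where the difference had the other sign (log2 difference over both 0.11, exact permutation p 0.335, adjusted 0.558). Nos3 over Cdh5 and Vwf over Cdh5 did not pass either, with exact permutation p of 0.6 and 1.

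**Figure D3:**
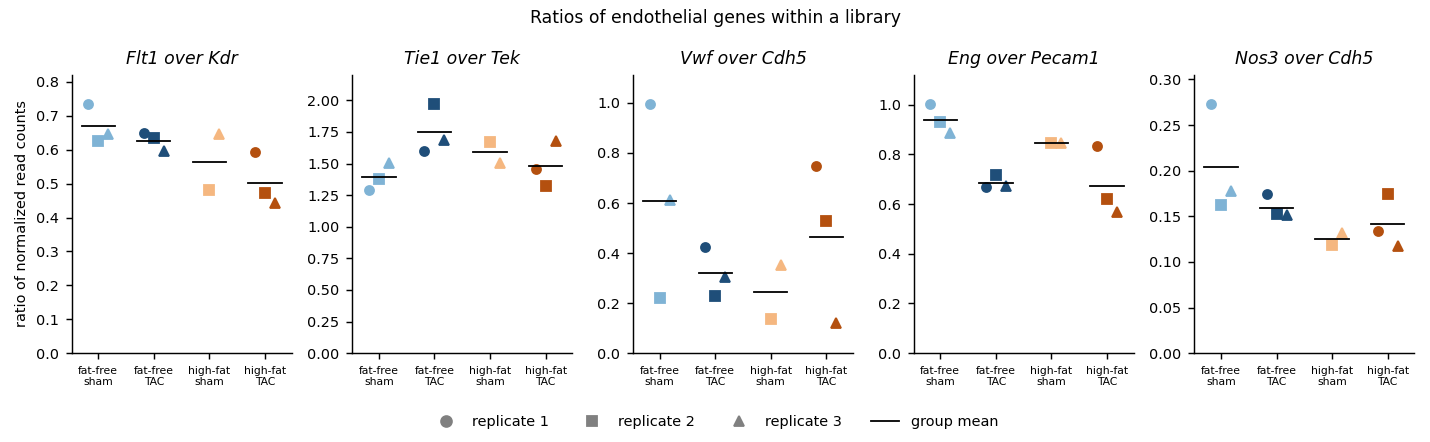
Ratio of normalized read counts of gene pairs within each library (y axis, from 0) in the 4 groups (x axis). Points are libraries with shapes for replicate numbers, and lines are group means. Eng over Pecam1 lies lower in TAC than in sham on both diets, and Vwf over Cdh5 spreads from 0.122 to 0.994.

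Vwf (chr6:125552963-125686677, plus strand, 52 exons), the clotting protein stored in the granules of endothelial cells, was the most uneven member. It was at 3449, 1075 and 3263 in fat-free sham and at 2844, 1459 and 2089 in fat-free TAC. Among the high-fat libraries, sham replicates 2 and 3 were at 966 and 2163 and TAC at 3942, 3811 and 1104. The groups overlapped on both diets, and the libraries of fat-free sham and of high-fat TAC each split into high and low values.

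The highest Vwf value was 3.21 times the lowest on the fat-free diet and 4.08 times on the high-fat diet, against at most 2.14 for any other member on either diet. The log2 fold changes were -0.16 ± 0.44 (SE) and 0.82 ± 0.65 (SE), with limma adjusted p of 0.831 and 0.377. With Myl7 as a covariate the fat-free value turned to 0.80 and passed as higher (adjusted p 0.0768). With the Myl7-rich libraries left out it was 0.70 (adjusted p 0.328), where 0 genes of all passed. The authors' deposited table gave -0.09 for the high-fat diet, where a shared set of libraries was not established.

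Of the endocardial genes Npr3 is shown by library. Npr3, a natriuretic peptide receptor of the endocardium, was at 1316, 571 and 1173 in fat-free sham and at 649, 348 and 468 in fat-free TAC. It was at 179 and 600 in the high-fat sham libraries 2 and 3 and at 763, 1263 and 305 in high-fat TAC.

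Within each of the 4 groups the library lowest in Vwf was also the lowest in Npr3. This held for 5 of the 8 endocardial genes (Npr3, Cytl1, Tmem108, Hapln1 and Nfatc1), for 1 of the 6 venous genes other than Vwf, and for 2.32% of the 11704 genes with a mean of at least 100. The endocardial genes Plvap and Cgnl1 shared the lowest library in 3 groups and Gata4 in 1. Hapln1 was near the floor, at 0 and 2 in high-fat sham and at 9, 6 and 3 in high-fat TAC. Nfatc1 differed little, at 608 and 631 in high-fat sham and at 690, 673 and 635 in high-fat TAC. The count was made after the values of Vwf were seen. Myl7 was high in 4 of the libraries with more Vwf, but at 10 in high-fat TAC replicate 2, where Vwf was at 3811. It too was lowest in each group in the library lowest in Vwf. It was near the floor there on the high-fat diet, at 4 against 6 in sham and at 6 against 14839 and 10 in TAC. Cdh5 did not share this order, since in fat-free sham its lowest library was the one with the most Vwf. In each group the library lowest in Vwf was also lowest for the fibroblast markers Dcn, Gsn and Fbln1 and the atrial markers Sbk2 and Stard10. The fibroblast marker Col1a1 and the atrial marker Nppa did not share it in every group. What part chamber lining, fibroblasts or atrial muscle in the sampled tissue had in Vwf was not tested.

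**Figure D4:**
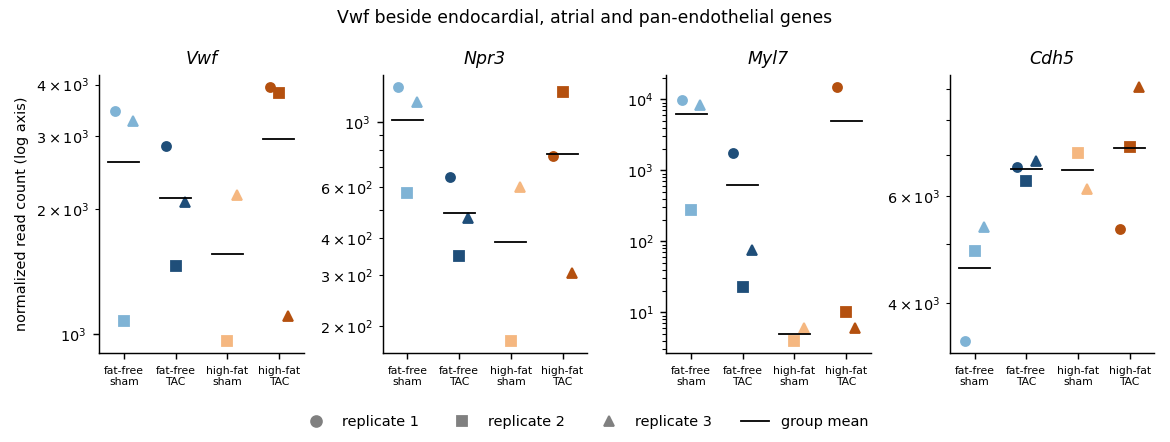
Normalized read count (y axes, log scale) of Vwf, the endocardial gene Npr3, the atrial gene Myl7 and Cdh5 in the 4 groups (x axis). Points are libraries with shapes for replicate numbers, and lines are group means. Replicate 2 is lowest in fat-free sham for Vwf, Npr3 and Myl7. Replicate 3 is lowest in high-fat TAC for Vwf, Npr3 and Myl7 but highest for Cdh5.

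How the members moved with one another was described over the 11 libraries, with log2 values centred within each diet. These libraries share their groups and scaling, so no p is given. Against the mean of the other 9 members, Pearson's r was 0.74 for Tek, 0.69 for Tie1, 0.65 for Nos3 and 0.55 for Pecam1. It was between 0.15 and 0.34 for Cdh5, Kdr, Flt1, Ptprb and Eng, and -0.21 for Vwf. Of 10848 other genes with a mean of at least 100, those most like the mean of the members were Jmjd1c (r 0.88), Emcn (0.86), Kdm1a (0.81), Zfp608 (0.81) and Auts2 (0.80). Emcn encodes endomucin, a surface sialomucin of capillary and venous endothelium. The genes most like Vwf alone were Unc13b (0.94), Tmem108 (0.94), Amigo2 (0.93) and Ramp1 (0.92), a measure chosen after the values of Vwf were seen.

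The ligands and co-receptors of the member receptors were counted in a list of 21 genes. Of 18 tested on the fat-free diet 7 were higher and 3 lower, and of 19 on the high-fat diet 5 were higher and 2 lower. That is 55.6% and 36.8% of those tested, against 24.2% and 31.7% of all genes. All 15 high-fat calls printed for genes other than the members were lost when either sham library or TAC replicate 3 was left out, where few or no genes of all passed. Vegfa, the main ligand of VEGFR2, was at 8286 and 7231 in the high-fat sham libraries 2 and 3 and at 4064, 5370 and 5642 in high-fat TAC, lower in all 3. Its log2 fold change was -0.64 ± 0.17 (SE, limma adjusted p 0.0646), and on the fat-free diet 0.15 ± 0.16 (SE, adjusted p 0.564). Vegfb, a ligand of VEGFR1, was lower on the high-fat diet, at -0.74 ± 0.23 on the log2 scale (limma adjusted p 0.0796) and had -0.25 ± 0.11 on the fat-free diet (adjusted p 0.163), where it passed without TAC replicate 3 (-0.35, adjusted p 0.0468).

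Beside these falls of Vegfa and Vegfb, cardiomyocyte markers summed to 2471747 to 2609695 in high-fat sham and 1209021 to 1969862 in high-fat TAC. The lowest sum was that of TAC replicate 1. Of 12 such markers 0 were higher and 2 lower on that diet, or 16.7% against 31.7% of all genes tested, with a median log2 fold change of -0.83. The part of cardiomyocytes in the values of Vegfa and Vegfb was not tested. Pgf, another VEGFR1 ligand, was lower on the fat-free diet, at -0.49 ± 0.15 (limma adjusted p 0.0631) and had -0.21 ± 0.28 on the high-fat diet (adjusted p 0.612). Its fat-free call was lost in 9 of 17 alternatives, among them each sham library left out and TAC replicates 1 and 2 (adjusted p 0.122 to 0.190). Nrp2, a co-receptor for VEGF and semaphorins, was at 787, 1218 and 1237 in fat-free sham and at 2324, 2152 and 2401 in fat-free TAC. The groups lay apart, with a log2 fold change of 1.11 ± 0.17 (limma adjusted p 0.00864). Its high-fat value was 0.74 ± 0.27 (adjusted p 0.107), with no overlap. It passed in 7 of 15 alternatives, among them without TAC replicate 1 (0.99, adjusted p 0.00976), and the authors' deposited table gave it an adjusted p of 0.00278.

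Angpt1, the ligand that activates TIE2, was at 1388, 1338 and 888 in fat-free sham and at 738, 400 and 349 in fat-free TAC. All TAC libraries were lower, with a log2 fold change of -1.33 ± 0.29 (SE, limma adjusted p 0.0228). The high-fat groups overlapped at -0.55 ± 0.36 (adjusted p 0.303), and without TAC replicate 2 the value passed (-0.89, adjusted p 0.0450). Angpt2, which competes with it at the receptor, had 0.07 ± 0.19 and 0.18 ± 0.37 and did not pass.

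Of 8 tested ligands and receptors of the TGF-beta family, to which the partners of endoglin belong, 5 were higher and 1 lower on the fat-free diet, and 5 were higher and 0 lower on the high-fat diet. Of all genes tested, 24.2% and 31.7% passed in either direction. This subset was counted after its values were seen. Tgfb1 was higher by 0.70 ± 0.13 and 0.43 ± 0.11 (limma adjusted p 0.0147 and 0.0601), and Tgfb2 by 1.29 ± 0.39 and 2.27 ± 0.42 (adjusted p 0.0597 and 0.0387). Tgfbr2, the type II receptor, was at 1892, 1366 and 1786 in fat-free sham, 3022, 2351 and 1908 in fat-free TAC, 1504 and 1745 in high-fat sham and 3428, 2495 and 2961 in high-fat TAC. Its groups lay apart on both diets, with 0.52 ± 0.18 and 0.86 ± 0.16 (adjusted p 0.0966 and 0.0391).

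Tgfbr3, a co-receptor also called betaglycan, went the other way. It was at 1843, 1468 and 1858 in fat-free sham and at 1344, 1139 and 1284 in fat-free TAC, lower in all 3, with -0.45 ± 0.12 on the log2 scale (limma adjusted p 0.0431). Its high-fat groups lay apart too, at 1521 and 1669 in sham and 958, 1414 and 1066 in TAC, with -0.49 ± 0.18 (adjusted p 0.104), and passed in the authors' deposited table (-0.58, adjusted p 0.0150). Some fat-free calls rested on single libraries. That of Tgfbr2 was lost with any library but TAC replicate 3 left out (adjusted p 0.127 to 0.243), that of Tgfb2 without sham replicate 1 or 2 or TAC replicate 1 or 2 (0.111 to 0.189) and that of Tgfbr3 without sham replicate 1 or 3 or TAC replicate 2 (0.118 to 0.147).

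Macrophages and fibroblasts also express these genes. The macrophage sums given above were higher in every TAC library than in any sham library. Of 12 fibroblast markers 5 were higher and 1 lower on the fat-free diet and 6 higher and 1 lower on the high-fat diet, with median log2 fold changes of 0.53 and 1.18. That is 50% and 58.3% past the threshold, against 24.2% and 31.7% of all genes tested. The part of macrophages and fibroblasts in the values of the TGF-beta family was not tested.

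In the nitric oxide pathway 5 of 15 tested genes were higher and 0 lower on each diet, which is 33.3%, against 24.2% and 31.7% of all genes tested. Ddah1, an enzyme that clears the endogenous inhibitor of nitric oxide synthases, was at 223, 208 and 195 in fat-free sham and at 1600, 584 and 411 in fat-free TAC. With high fat it was at 203 and 261 in sham replicates 2 and 3 and at 2011, 799 and 990 in TAC. TAC libraries lay above sham on both diets, by 1.80 ± 0.43 and 2.34 ± 0.40 on the log2 scale (limma adjusted p 0.0298 and 0.0370).

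Ddah2, a relative of the same enzyme, was higher by 0.80 ± 0.13 and 1.07 ± 0.17 (limma adjusted p 0.00926 and 0.0339). Prkg1, the kinase activated by cyclic GMP, was higher by 0.95 ± 0.22 and 0.78 ± 0.12 (adjusted p 0.0279 and 0.0337). These genes are not confined to endothelium. Cav1, which encodes caveolin-1, a membrane protein that holds the synthase inactive, was higher on the fat-free diet by 0.38 ± 0.12 (adjusted p 0.0630) and had 0.29 ± 0.25 on the high-fat diet (adjusted p 0.415). The fat-free call of Cav1 was lost with sham replicate 1 (0.188), sham replicate 2 (0.112) or TAC replicate 2 (0.131) left out, and the high-fat value passed without TAC replicate 1 (0.51, adjusted p 0.0373).

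Klf2, a transcription factor raised by laminar flow and an activator of Nos3, was at 2983, 2901 and 2170 in fat-free sham and at 1313, 1360 and 1728 in fat-free TAC. All TAC libraries lay below sham, with a log2 fold change of -0.87 ± 0.15 (SE, limma adjusted p 0.0131). The high-fat value was -0.40 ± 0.30 (adjusted p 0.342), and it passed without TAC replicate 2 (-0.70, adjusted p 0.0270). Of the 13 shear stress and Notch genes 3 were higher and 2 lower on the fat-free diet, and 1 was higher and 1 lower on the high-fat diet, or 38.5% and 15.4% against 24.2% and 31.7% of all genes.

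Of 26 other pan-endothelial genes 5 were higher and 0 lower on the fat-free diet, and 3 were higher and 3 lower on the high-fat diet. That is 19.2% and 23.1% of the list, below the 24.2% and 31.7% of all genes tested. The list's median log2 fold change was 0.11 and 0.04. Cd93, a surface lectin-like receptor of endothelium, was at 2005, 2569 and 2590 in fat-free sham and at 4580, 4292 and 4107 in fat-free TAC. With high fat it was at 3454 and 3552 in sham replicates 2 and 3 and at 4380, 6467 and 8566 in TAC. Its groups lay apart on both diets, by 0.87 ± 0.12 and 0.83 ± 0.28 (limma adjusted p 0.00574 and 0.0879), and the high-fat call was also lost without TAC replicate 2 (0.125).

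Ecscr, a regulator of endothelial migration, was higher by 0.67 ± 0.13 and 0.82 ± 0.19 (limma adjusted p 0.0173 and 0.0514). Icam2 was higher by 0.47 ± 0.11 on the fat-free diet (adjusted p 0.0294) and had 0.57 ± 0.25 on the high-fat diet (0.145). Erg, the ETS factor named above, had 0.33 ± 0.13 (adjusted p 0.120) and was higher on the high-fat diet by 0.36 ± 0.13 (0.0985). Tmem204 and Ushbp1 were lower on the high-fat diet, at -0.79 ± 0.18 and -0.61 ± 0.19 (adjusted p 0.0514 and 0.0774), and had -0.06 and -0.09 on the fat-free diet. Cldn5, the main claudin of endothelial tight junctions, had 0.45 ± 0.37 and 0.28 ± 0.27, Egfl7 0.06 and 0.00, and Emcn 0.01 and 0.23, and none of these 3 passed. One library decided some of these values. Without fat-free sham replicate 3, which held 1175 Cldn5 counts against 435 and 405 in the other fat-free sham libraries, Cldn5 was at 0.94 (adjusted p 0.0184) and Erg at 0.45 (0.0615), and both passed. Without high-fat TAC replicate 1, Icam2 at 0.80 (0.0112) and Emcn at 0.34 (0.0423) passed.

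Other endothelial lists moved in other ways. Of 11 capillary and lipid-handling genes 2 were higher and 3 lower on the fat-free diet, and 0 higher and 2 lower on the high-fat diet, with medians of -0.03 and -0.92. That is 45.5% and 18.2% past the threshold, against 24.2% and 31.7% of all genes. On the high-fat diet the median was -0.83 over 12 cardiomyocyte markers and -0.71 over 10 pericyte markers, and the part of these cells in the list's values was not tested. Cd36, the fatty acid transporter, was lower on the fat-free diet, at -0.55 ± 0.12 (limma adjusted p 0.0231) and had -0.92 ± 0.41 on the high-fat diet (0.155), where it passed without TAC replicate 1 (-0.54, adjusted p 0.0198). Cardiomyocytes express it too. Aqp1, the water channel of capillaries, was lower on the high-fat diet, at -1.20 ± 0.17 (adjusted p 0.0288) and had -0.48 ± 0.18 on the fat-free diet (0.110), where it passed without TAC replicate 3 (-0.67, adjusted p 0.0152). Fabp4 had 0.18 and -0.02 and did not pass.

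Of 15 tip cell and sprouting genes 7 were higher and 1 lower on the fat-free diet, and 7 higher and 0 lower on the high-fat diet, with medians of 0.45 and 0.63. That is 53.3% and 46.7% past the threshold, against 24.2% and 31.7% of all genes, and 5 and 6 of 12 fibroblast markers were higher beside them. Many of these encode basement membrane proteins that other cells make as well. Of the leukocyte adhesion genes of endothelium 1 of 9 was higher on the fat-free diet and 6 of 10 on the high-fat diet, with 0 lower on either, or 11.1% and 60% against the same shares of all genes. Of 15 proliferation genes 15 were higher on both diets, and their cell type was not measured. Differences between the diets in these counts were not tested as such, and no gene of these lists passed the test of the difference.

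**Figure D5:**
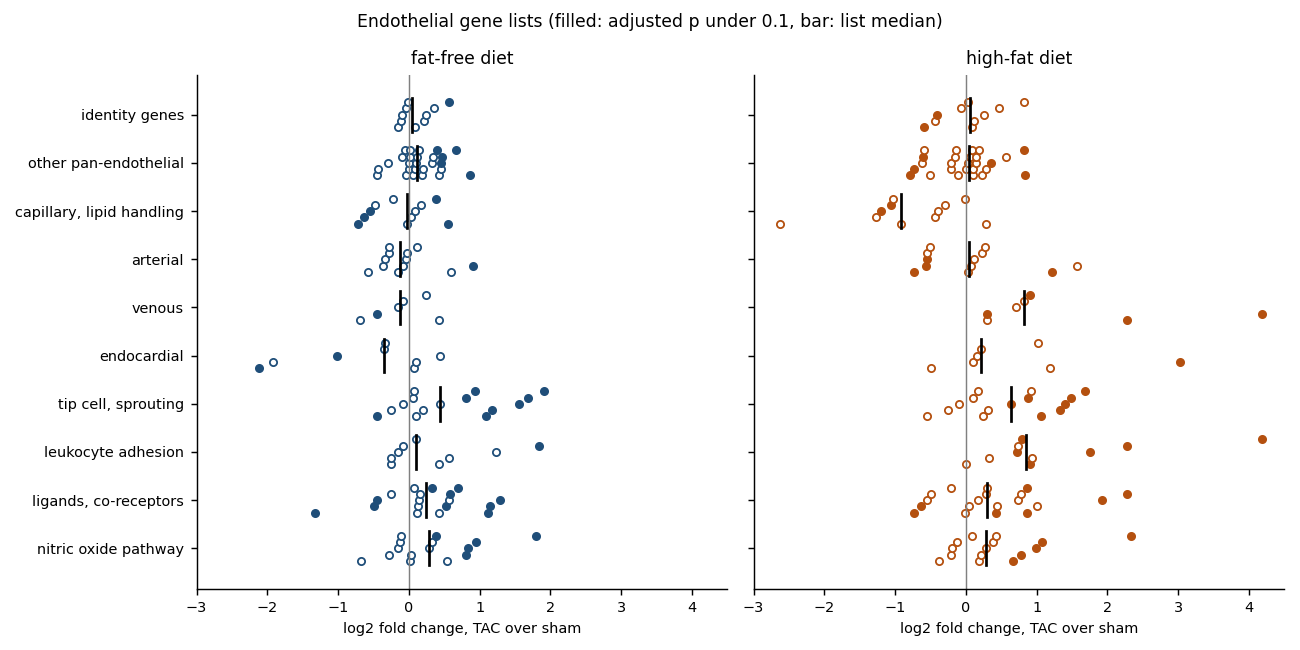
Log2 fold change of TAC over sham (x axis) for the tested genes of 10 endothelial lists (y axis) on the fat-free diet and the high-fat diet. Each point is a gene, filled where the limma adjusted p was under 0.1, and black bars are list medians. The median of the identity genes was 0.04 and 0.06, that of the tip cell genes 0.45 and 0.63, and that of the capillary and lipid-handling genes -0.03 and -0.92.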

How the data were processed

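Per the submitters' processing notes the reads went through STAR, Subread, featureCounts and DESeq2 on build mm10. Settings and versions are not given in the sources used here. The authors deposited normalized counts per gene and library, divided by size factors within each diet and rounded, which were read from the values and treated as a score, with their own shrunken log2 fold changes and adjusted p-value (per the labels, DESeq2 at 10% FDR). Library totals bear on precision and are given with the results.

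Genes with at least 10 normalized counts in 3 libraries (fat-free) or 2 (other fits) were tested with limma 3.58.1 (R 4.3.3, with the package data.table in version 1.17.8) on log2(value + 1), a scale that understates the change of low genes. Adjusted p-values are Benjamini-Hochberg over all genes tested, with a threshold of 0.1. The procedure was tested on simulated data. In no pair of replicate libraries were over 4.16% of values equal. Exons and coordinates are those of the tables (mm10). Figures were drawn with matplotlib 3.10.9 under Python 3.11.15 (numpy 2.4.6, pandas 2.3.3).

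The members and lists were chosen with earlier results of these data known. The naming rule took all members, up to 3 genes of smallest adjusted p per list and comparison, a set of genes picked by name, and the 5 genes whose values ran most like the members' mean. Of these the text gives all members and those genes that bear on them, and some list genes are counted but not reported here by name. The genes most like Vwf were added after the values of Vwf were seen. Alternatives were other pseudocounts (0.5 and 5), scalings, filters, covariates and left-out libraries. Not analysed here was replicate 1 of the high-fat sham group.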

Additional observations from a re-analysis of the deposited data

How the results depend on the processing

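With 2 or 3 libraries per group, 1 library decided several calls, and Pecam1 kept a positive log2 fold change in every alternative run within a diet and over both. Counts of members past the threshold were 1 (fat-free), 2 (high-fat), 0 (difference) and 2 (both diets) of 10. Over all genes tested, 24.2%, 31.7%, 0% and 51.2% passed in these fits. On the fat-free diet the count was 2 when scaled to the library total, 3 with log2 Myl7 as a covariate (Pecam1, Nos3 and Vwf, all higher), 2 by the authors' adjusted p and 0 without the libraries above 1000 Myl7 counts, where 0 genes of all passed. On the high-fat diet it was 6 when scaled to the total and 4 with Myl7 as a covariate. Over both diets it was 1 with no filter on low values, 4 scaled to the total and 5 without the Myl7-rich libraries (3 higher and 2 lower). The calls over all genes moved as well. All high-fat genes past the threshold went from 4519 to 2814 with no filter and to 6849 scaled to the total. Fat-free genes past it went from 3383 to 3470 scaled to the total and to 3519 with Myl7 as a covariate.

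Leaving out single libraries gave 0 to 2 members and 1369 to 3821 genes on the fat-free diet, 0 to 4 members and 0 to 5966 genes on the high-fat diet, 0 members and 0 to 1 gene for the difference (1 without high-fat TAC replicate 1), and 1 to 3 members and 5831 to 7807 genes over both diets. The ratios ranged from -0.23 to -0.02 (Flt1 over Kdr), 0.07 to 0.15 (Tie1 over Tek), -0.34 to 0.40 (Vwf over Cdh5), -0.48 to -0.34 (Eng over Pecam1) and -0.16 to 0.034 (Nos3 over Cdh5). Eng over Pecam1 had -0.45 within the fat-free diet (adjusted exact permutation p 0.25) and -0.35 within the high-fat diet (0.6), designs too small to pass. Vwf over Cdh5 was -0.73 within fat-free, and within high-fat Tie1 over Tek was -0.10 and Nos3 over Cdh5 0.16.

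Whether replicate numbers pair the libraries could not be decided. Deviations of same-numbered libraries correlated at 0.43, 0.15 and -0.14 on the fat-free diet and at 0.17 and -0.15 on the high-fat diet. Fat-free libraries of unlike number correlated at -0.42 to 0.32. With 2 high-fat sham libraries, their deviations from the mean mirror each other, so the high-fat values cannot decide it. A fit with the replicate number as a block gave 1 member on the fat-free diet and 4 on the high-fat diet (2 higher and 2 lower), where high-fat TAC replicate 1 has no sham partner and drops out. Under the replicate block on the high-fat diet Tie1 was at 0.068, Angpt2 at -0.12, Egfl7 at 0.022 and Fabp4 at 0.20.

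Values below changed sign against those reported, and the cause was not tested. Scaled to the library total, fat-free Flt1 was at 0.13, Tek 0.029, Ptprb 0.10, Eng 0.045, Tmem204 0.081 and Ushbp1 0.051, high-fat Tie1 0.35, Ptprb 0.015, Pgf 0.21, Klf2 0.013, Egfl7 0.41 and Fabp4 0.40, and over both diets Kdr 0.12, Tek 0.22, Ptprb 0.061 and Eng 0.26. Without mitochondrial transcripts in the total, fat-free Flt1 was at 0.028, high-fat Tie1 0.15, Pgf 0.013, Egfl7 0.22 and Fabp4 0.21, and over both diets Tek 0.071 and Eng 0.12. With Myl7 as a covariate, fat-free Kdr was at -0.0046, Tek 0.047, Vwf 0.80, Ptprb 0.081, Eng 0.11 and Vegfa -0.18, high-fat Tie1 0.093, Angpt2 -0.15, Egfl7 0.030 and Fabp4 0.25, the difference for Vwf -0.20 and Eng over both diets 0.0070. Without the Myl7-rich libraries, fat-free Kdr was at -0.18, Vwf 0.70, Vegfa -0.036 and Angpt2 -0.19, and Eng over both diets 0.052. By the authors' deposited table, high-fat Tek was at -0.10, Tie1 0.01, Vwf -0.09, Eng -0.05 and Egfl7 0.00, and a shared set of high-fat libraries was not established. Leaving out single libraries also turned the sign of these uncalled values, with ranges on the fat-free diet of -0.10 to 0.16 (Angpt2), -0.086 to 0.12 (Emcn), -0.14 to 0.067 (Flt1), -0.11 to 0.20 (Kdr), -0.17 to 0.080 (Ptprb), -0.24 to 0.049 (Tek), -0.18 to 0.068 (Tmem204), -0.26 to 0.059 (Ushbp1) and -0.71 to 0.13 (Vwf). The high-fat ranges were -0.12 to 0.50 (Angpt2), -0.093 to 0.30 (Cdh5), -0.070 to 0.043 (Egfl7), -0.043 to 0.30 (Esam), -0.31 to 0.20 (Fabp4), -0.62 to 0.21 (Pgf), -0.10 to 0.16 (Tek) and -0.16 to 0.068 (Tie1). Over both diets they were -0.039 to 0.036 (Eng), -0.11 to 0.041 (Tek) and -0.028 to 0.48 (Vwf), and for the difference -0.17 to 0.25 (Nos3) and -0.016 to 0.27 (Tek).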
